A study of Mus musculus with 24 samples.

Results

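The transcripts of 8 enzymes of the pentose phosphate pathway, 8 of the 24421 genes in the count table, were followed through 3 B cell populations of mouse bone marrow in 2 Vhl genotypes. They were chosen by name: G6pdx, Pgls, Pgd and H6pd for the oxidative branch and Rpe, Rpia, Tkt and Taldo1 for the non-oxidative branch. All 8 passed the filter on low counts that left 12850 genes to test. The deletion mice carried Mb1-Cre on 1 allele (+/WT) and 2 floxed Vhl alleles (flox/flox). Their controls carried Mb1-Cre +/WT as well, with 1 floxed and 1 wild-type Vhl allele (flox/WT). Each of 4 mice per genotype gave 1 bulk RNA library of pro-B and pre-B cells sorted together (proBpreB), 1 of immature and 1 of mature B cells, 24 libraries in all. Mb1-Cre is driven by the promoter of Cd79a, which encodes a B cell receptor subunit, so recombination is directed to the B lineage. Neither the ages of the mice nor the surface markers of the sort gates are given in the labels.

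The pathway takes glucose 6-phosphate out of glycolysis. The oxidative branch passes its electrons to NADP, which makes NADPH for lipid synthesis and for glutathione and thioredoxin, and ends in ribulose phosphate. The non-oxidative branch turns that sugar into ribose phosphate, the backbone of nucleotides, or returns its carbon to glycolysis by reversible transfers. Vhl is the substrate receptor of the ubiquitin ligase that removes hypoxia-inducible factor (HIF) when oxygen is present, and HIF is known for raising the genes of glycolysis. The comparisons ask how each branch differs between the genotypes within a population and between populations within a genotype.

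Levels are given as TMM-scaled CPM, read counts scaled to a common library size. Library totals ran from 7850186 to 11863949 counts, so that a limit of 3 counts corresponds to 0.253 to 0.382 CPM before TMM scaling. Vhl itself was lower in flox/flox libraries of each population, without overlap between genotypes. It measured 10.2 ± 3.37 CPM in flox/flox, against 25.3 ± 2.02 CPM in flox/WT proBpreB cells, 5.58 ± 2.31 CPM in flox/flox, against 35.5 ± 8.88 CPM in flox/WT immature cells, and 7.60 ± 1.90 CPM in flox/flox, against 29.1 ± 2.81 CPM in flox/WT mature cells (SD, n = 4 each). Within each genotype the populations followed the order of their labels, but the stage markers also differed between the genotypes. The 15 pro-B and pre-B markers summed to 4147 to 5007 CPM in flox/flox, against 4055 to 5340 CPM in flox/WT proBpreB libraries, 1321 to 1653 CPM in flox/flox, against 666 to 868 CPM in flox/WT immature libraries, and 387 to 447 CPM in flox/flox, against 205 to 339 CPM in flox/WT mature libraries. The 14 of 16 listed mature B markers in the table summed to 1523 to 1968 CPM in flox/flox, against 1761 to 2303 CPM in flox/WT proBpreB libraries, 11523 to 12387 CPM in flox/flox, against 14361 to 17421 CPM in flox/WT immature libraries, and 23688 to 27970 CPM in flox/flox, against 32244 to 37301 CPM in flox/WT mature libraries. In immature and mature cells neither sum overlapped between genotypes, with the early markers higher and the late ones lower in flox/flox libraries. Neutrophil and monocyte genes were also present. The 17 of 18 listed markers in the table summed to 4461 to 5623 CPM in flox/flox, against 4250 to 6369 CPM in flox/WT proBpreB libraries, 12548 to 16869 CPM in flox/flox, against 8598 to 10092 CPM in flox/WT immature libraries, and 13406 to 21612 CPM in flox/flox, against 12256 to 18867 CPM in flox/WT mature libraries. None of the 17 was at 0 in any group. In bulk RNA, fewer cells of a type and less RNA per cell cannot be told apart.

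Pgd and Taldo1 are the members with a genotype call, 1 in each branch, and their promoters are shown for that reason. The sequences are the 250 bases before the RefSeq start, from RefSeq on GRCm38.p6, written 5′ to 3′ on the gene's strand. Capitals mark GCGTG, a core of the element that HIF binds.

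Pgd promoter, chr4:149166706-149166955, minus strand: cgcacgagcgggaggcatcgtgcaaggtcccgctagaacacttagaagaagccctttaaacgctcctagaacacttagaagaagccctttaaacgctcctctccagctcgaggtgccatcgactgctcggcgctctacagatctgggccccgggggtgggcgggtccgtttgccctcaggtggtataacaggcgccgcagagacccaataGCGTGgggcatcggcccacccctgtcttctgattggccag

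Taldo1 promoter, chr7:141391910-141392159, plus strand: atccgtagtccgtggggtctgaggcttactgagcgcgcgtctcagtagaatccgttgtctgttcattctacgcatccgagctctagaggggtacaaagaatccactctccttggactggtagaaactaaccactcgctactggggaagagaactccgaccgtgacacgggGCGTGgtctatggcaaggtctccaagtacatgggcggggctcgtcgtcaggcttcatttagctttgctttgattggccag

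Each held GCGTG once and ACGTG not at all, searched on both strands. GCGTG was also found once in the windows of G6pdx, Pgls, Rpia and Tkt, and in none of those of Rpe and H6pd or before a second Pgd start. The Rpe and H6pd windows precede starts that lie inside the RefSeq bounds of those genes, so the bases before their outermost ends were not all searched. Of all 32851 promoter windows of this length, 28.2% held GCGTG, 16.6% ACGTG and 38.6% either, so the motif is common and a match is not a binding site. TGACNNNGC, the core of the antioxidant response element that Nrf2 binds, was found once, before G6pdx, and in 10.2% of all windows.

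The enzymes were present at very different levels. Levels per kilobase depend on which transcripts give the exon length, and those of the GENCODE basic set were used. On that length Pgls stood first in proBpreB cells, with 326 ± 47.4 CPM per kb in flox/flox and 437 ± 55.4 CPM per kb in flox/WT mice. Over the exons of all annotated transcripts it had 102 ± 14.8 CPM per kb in flox/flox and 137 ± 17.3 CPM per kb in flox/WT mice there, below Taldo1 at 134 ± 7.75 in flox/flox and 159 ± 5.76 in flox/WT mice, so the order of these enzymes in proBpreB cells is not settled. Taldo1 stood first on either length in immature cells, on the basic length with 332 ± 35.8 CPM per kb in flox/flox, against 332 ± 34.2 in flox/WT mice, and in mature cells, with 248 ± 53.6 in flox/flox, against 384 ± 25.1 in flox/WT mice (SD, n = 4). On the basic length Tkt, Pgd, G6pdx and Rpe lay between 21.5 and 100.2 CPM per kb as group means. H6pd, which works inside the endoplasmic reticulum, stayed between 4.30 and 5.80 CPM per kb, and Rpia was the lowest of the 8 in each group at 2.74 to 3.95 CPM per kb, and on either length these were the lowest members. Group means of CPM per library, before any division by length, are given from here on.

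**Figure D1:**
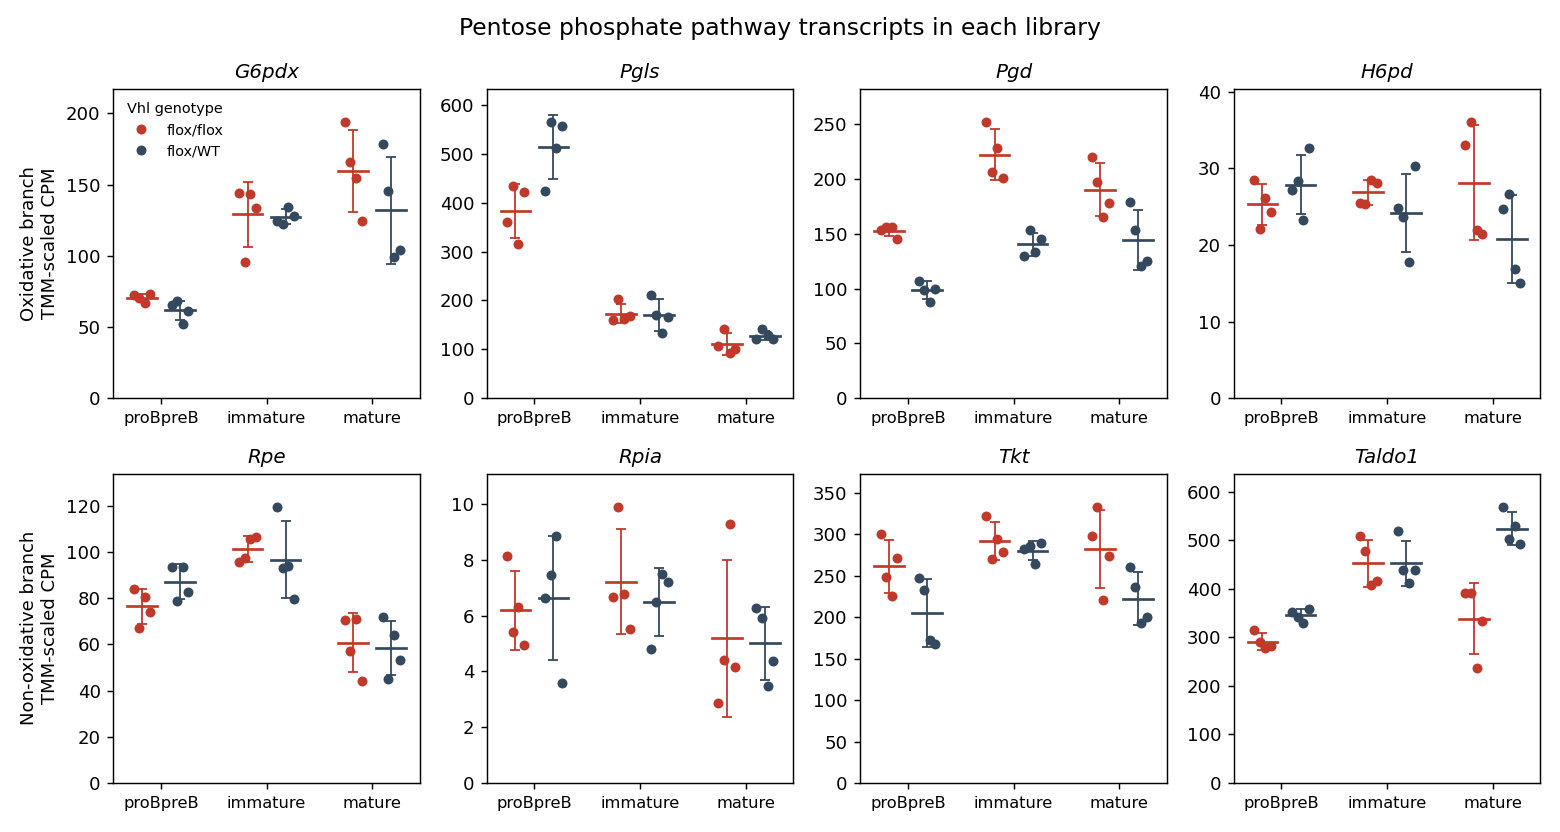
TMM-scaled CPM (y axis, linear from 0) of the 8 enzymes in each library, by population (x axis); points are libraries, horizontal lines means and bars SD over 4 mice. Pgd points of flox/flox mice lie above those of flox/WT mice in proBpreB and immature cells, Taldo1 points of flox/flox mice lie below those of flox/WT mice in mature cells, and Pgls falls along the populations in both genotypes.

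Between the genotypes, 4 of 24 member tests passed at an adjusted p of 0.05: Pgd was higher in flox/flox cells of each population and Taldo1 was lower in mature cells. In the oxidative branch 1 of 4 members was called in each population, and in the non-oxidative branch 0 of 4, 0 of 4 and 1 of 4. Over all genes tested, 6.13% were called in proBpreB cells, 20.7% in immature cells and 16.3% in mature cells. The number of members called in a population, 1, 1 and 2 of 8, is small enough that only the individual values are described.

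Pgd encodes 6-phosphogluconate dehydrogenase, the enzyme that makes the second NADPH and releases carbon dioxide. In proBpreB cells it measured 153, 156, 156 and 145 CPM in flox/flox libraries, against 107, 99.2, 88.0 and 100.03 CPM in flox/WT libraries. The genotypes did not overlap, and the change was 0.63 on the log2 scale (SE 0.12, edgeR quasi-likelihood test, Benjamini-Hochberg adjusted p = 5.5e-04). In immature cells Pgd measured 252, 207, 229 and 201 CPM in flox/flox, against 130, 153, 133 and 145 CPM in flox/WT libraries. Again each flox/flox library lay above each flox/WT library, and the change was 0.66 (SE 0.12, edgeR adjusted p = 1.0e-04). In mature cells Pgd measured 220.4, 197, 165 and 178 CPM in flox/flox, against 179, 154, 121 and 125 CPM in flox/WT libraries. Here the genotypes overlapped, since flox/WT replicate 1 stood above flox/flox replicates 3 and 4, and the change was 0.39 (SE 0.12, edgeR adjusted p = 0.019). This call was lost when only the groups compared were fitted (adjusted p = 0.0898), and on leaving out the mature library of flox/flox mouse 1 (0.0941), flox/WT mouse 3 (0.0949) or flox/WT mouse 4 (0.0842).

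The difference between the Pgd effects was itself tested and none passed. The genotype effect was larger by 0.03 in immature than in proBpreB cells (SE 0.17, edgeR adjusted p = 0.94) and the effect in mature cells differed by -0.27 from that in immature cells (95% interval -0.61 to 0.07) and by -0.24 from that in proBpreB cells (-0.58 to 0.10). Several marker lists differed with genotype beside Pgd, by calls or by sums. Proliferation genes were called lower in flox/flox immature cells, 25 of 25 (100%), and higher in mature cells, 15 of 25 (60%). Of the 25, 0 were called in proBpreB cells. Myeloid marker sums differed in immature cells, where 6 of 17 markers were called higher in flox/flox libraries and the sums did not overlap. In proBpreB cells 0 of 17 were called and the sums overlapped. There 14 T and NK cell markers summed to 386 to 569 CPM in flox/flox, against 312 to 383 CPM in flox/WT libraries, with 1 called higher, and 8 plasma cell markers to 1007 to 1024 CPM in flox/flox, against 1161 to 1261 CPM in flox/WT libraries, with 1 of 7 tested called lower, both without overlap. Of 14 mature B markers in proBpreB cells 9 were called lower and 2 higher. In mature cells 0 of 17 myeloid markers were called, and the libraries with the highest Pgd of each genotype were also those with the highest sums, 21612 CPM in flox/flox replicate 1 and 18867 CPM in flox/WT replicate 1. Erythroid markers were higher in flox/flox immature libraries too, with 7 of 12 called and sums of 10263 to 19028 CPM in flox/flox, against 2520 to 8094 CPM in flox/WT libraries. In mature cells 3 of 12 were called higher, with sums of 7814 to 21166 CPM in flox/flox, against 3823 to 10729 CPM in flox/WT libraries, and in proBpreB cells 0 of 12, with a median of 0.51. Plasmacytoid dendritic cell markers summed to 6037 to 6739 CPM in flox/flox, against 5130 to 5993 CPM in flox/WT immature libraries, with 1 of 10 called higher and 1 lower. In immature cells 35.3% of myeloid, 58.3% of erythroid and 20% of plasmacytoid markers were called, beside 20.7% of all genes. In proBpreB cells 7.14% of T and NK, 14.3% of plasma cell and 78.6% of mature B markers were, beside 6.13% of all genes. For erythroid markers in mature cells it was 25%, beside 16.3% of all genes. Counts near the share of all genes are not a result about those markers. The part of these transcripts in the Pgd values of any population was not tested.

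The other enzymes of the oxidative branch had no genotype call. G6pdx encodes glucose 6-phosphate dehydrogenase, the first and rate-limiting step. It measured 70.6 ± 2.59 CPM in flox/flox, against 61.7 ± 6.85 CPM in flox/WT proBpreB cells, 129 ± 22.9 CPM in flox/flox, against 127 ± 5.33 CPM in flox/WT immature cells, and 159.6 ± 28.8 CPM in flox/flox, against 132 ± 37.5 CPM in flox/WT mature cells. The changes were 0.19, 0.02 and 0.27 (edgeR adjusted p = 0.56, 0.95 and 0.24), with 95% intervals of -0.13 to 0.51, -0.30 to 0.34 and -0.04 to 0.59, so that a log2 change of 1 lies outside each. Without mature flox/WT replicate 1, which had the highest G6pdx of its group, the mature change was 0.46 and passed (adjusted p = 0.035). H6pd encodes the enzyme that carries out the first steps of the same route inside the endoplasmic reticulum. It measured 25.3 ± 2.71 CPM in flox/flox, against 27.9 ± 3.84 CPM in flox/WT proBpreB cells, 26.9 ± 1.67 CPM in flox/flox, against 24.2 ± 5.10 CPM in flox/WT immature cells, and 28.1 ± 7.53 CPM in flox/flox, against 20.8 ± 5.74 CPM in flox/WT mature cells, with changes of -0.14, 0.15 and 0.44 (edgeR adjusted p = 0.75, 0.62 and 0.12).

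Pgls, the lactonase between G6pdx and Pgd, was the member nearest to a call in proBpreB cells. It measured 360.5, 435, 315 and 422 CPM in flox/flox, against 423, 565, 513 and 557 CPM in flox/WT libraries. The groups overlapped at 1 flox/WT library, replicate 1, and the change was -0.43 (SE 0.14, edgeR adjusted p = 0.069). It passed without that library (-0.51, adjusted p = 0.030), with DESeq2 (adjusted p = 0.041) and with limma-voom (adjusted p = 0.040). In immature cells Pgls measured 173 ± 20.0 CPM in flox/flox, against 170.4 ± 32.2 CPM in flox/WT mice, a change of 0.02, and in mature cells 110.5 ± 22.2 CPM in flox/flox, against 128 ± 9.58 CPM in flox/WT mice, a change of -0.21 (edgeR adjusted p = 0.94 and 0.33). Over all annotated transcripts, 776 bases or 20.6% of the Pgls exons are shared with Fam129c on the same strand, and 0 in the basic set, and the annotation the authors counted against is not given. Fam129c averaged 460 CPM in flox/flox, against 814 CPM in flox/WT proBpreB cells, a change of -0.82. Whether reads of one gene stand in the count of the other was not tested.

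In the non-oxidative branch, Taldo1 encodes transaldolase, which moves a 3-carbon unit between sugar phosphates and joins the pathway to glycolysis. In mature cells it measured 391, 392.4, 237 and 334 CPM in flox/flox, against 569, 502, 530.4 and 493 CPM in flox/WT libraries. The highest flox/flox library lay below the lowest flox/WT library, and the change was -0.63 (SE 0.12, edgeR adjusted p = 4.0e-04). The call held without each library in turn, at -0.71 to -0.49. Other transcripts moved with genotype in the same mature libraries. Beside the stage markers given above, of which 5 of 15 early ones were called higher and 6 of 14 late ones lower, 15 of 25 proliferation genes were called higher, with a median of 0.73 and sums of 1235 to 1708 CPM in flox/flox, against 756 to 1352 CPM in flox/WT libraries. Without overlap, T and NK cell markers summed to 112 to 169 CPM in flox/flox, against 81.6 to 99.5 CPM in flox/WT libraries (3 of 14 called higher), and plasmacytoid dendritic cell markers to 2855 to 3297 CPM in flox/flox, against 3314 to 3930 CPM in flox/WT libraries (1 of 10 called higher and 2 lower). Stroma and endothelium markers, at 190 to 233 CPM in flox/flox, against 245 to 315 CPM in flox/WT libraries, did not overlap either (1 of 8 tested called higher and 1 lower), while the erythroid sums given above overlapped. The shares called were 33.3% of early, 42.9% of late, 60% of proliferation, 21.4% of T and NK, 30% of plasmacytoid and 25% of stroma markers. Over all genes 16.3% were called, and in lists this short a share near that is not a result about the markers. The part of these transcripts in the Taldo1 change was not tested. In immature cells the genotypes had nearly the same mean, 453 ± 48.8 CPM in flox/flox, against 452 ± 46.7 CPM in flox/WT mice, and the change was 0.00 with a 95% interval of -0.24 to 0.25. In proBpreB cells Taldo1 measured 315, 289.9, 278 and 282 CPM in flox/flox, against 353, 342, 329 and 358 CPM in flox/WT libraries. These did not overlap either, but the change of -0.25 did not pass (SE 0.12, edgeR adjusted p = 0.27).

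Taldo1 was the only one of the 8 with a call in 24 tests of a difference in genotype effect between populations. Its effect in mature cells minus that in immature cells was -0.63 (SE 0.17, edgeR adjusted p = 0.018), against 7.74% of all genes called in this comparison. Without each of the 16 libraries involved in turn the estimate stayed between -0.71 and -0.49, with adjusted p between 0.0084 and 0.048. Within mice the change was opposite in sign: from the immature to the mature population Taldo1 was lower in 4 of 4 flox/flox mice and higher in 4 of 4 flox/WT mice. The mature minus proBpreB difference was -0.38 (adjusted p = 0.28) and the immature minus proBpreB difference 0.25 (adjusted p = 0.41), comparisons in which 3.06% and 10.9% of all genes were called.

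Tkt encodes transketolase, which moves a 2-carbon unit and supplies both ends of the branch. It measured 301, 248, 226 and 272 CPM in flox/flox, against 247, 232, 172 and 167 CPM in flox/WT proBpreB libraries. In mature cells it measured 298, 333, 221 and 275 CPM in flox/flox, against 260.3, 237, 193 and 200.4 CPM in flox/WT libraries. The groups overlapped in both populations, and the changes of 0.35 and 0.34 did not pass (SE 0.13 each, edgeR adjusted p = 0.12 and 0.080). The proBpreB change passed without flox/WT replicate 1 (adjusted p = 0.043), and the mature change passed without flox/WT replicate 1 (0.039) or flox/flox replicate 3 (0.029). In immature cells Tkt measured 292 ± 22.7 CPM in flox/flox, against 281 ± 11.6 CPM in flox/WT mice, a change of 0.06.

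Rpe and Rpia, the epimerase and the isomerase that act on ribulose phosphate, had no genotype call. Rpe measured 76.5 ± 7.50 CPM in flox/flox, against 87.0 ± 7.57 CPM in flox/WT proBpreB cells, 101 ± 5.72 CPM in flox/flox, against 96.6 ± 16.6 CPM in flox/WT immature cells, and 60.7 ± 12.8 CPM in flox/flox, against 58.5 ± 11.8 CPM in flox/WT mature cells. Its changes were -0.19, 0.07 and 0.05, each with a 95% interval inside -0.48 to 0.37. Rpia was counted at 5.0 to 7.2 CPM. Its 95% intervals were -0.72 to 0.53 in proBpreB, -0.49 to 0.78 in immature and -0.60 to 0.71 in mature cells, so changes within those bounds are not excluded.

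**Figure D2:**
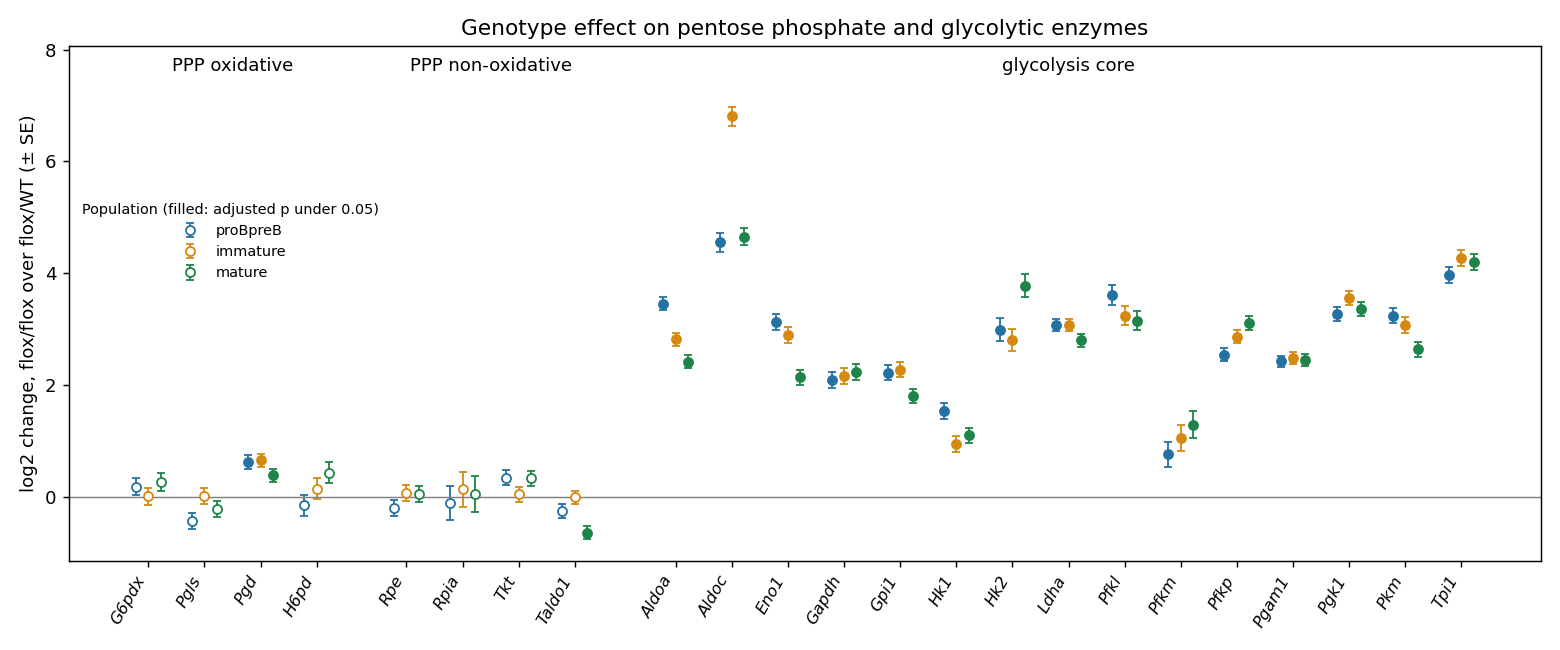
Log2 change of flox/flox over flox/WT (y axis, bars SE) for the 8 pathway enzymes by branch and for 15 glycolytic enzymes (x axis) in the 3 populations, with filled points for an adjusted p under 0.05. The pathway values lie between -0.63 and 0.66, while the glycolytic values lie between 0.77 and 6.81.

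Glycolysis, the route that the pathway leaves and rejoins, differed far more between the genotypes. All 15 listed enzymes were higher in flox/flox cells of each population, with medians of 3.08 in proBpreB cells, 2.87 in immature cells and 2.65 in mature cells on the log2 scale. The medians over all genes tested were 0.00, 0.00 and 0.01, and in the same order of populations the oxidative branch had medians of 0.03, 0.09 and 0.33 and the non-oxidative branch of -0.14, 0.06 and 0.05. Tpi1, triosephosphate isomerase, changed by 3.97, 4.28 and 4.20, and Aldoc, an aldolase, by 4.56, 6.81 and 4.66. The smallest glycolytic value in any population was 0.77, above the largest value of a pathway member, 0.66 for Pgd. The difference between the lists was not tested, since genes are not replicates.

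Of 9 enzymes at the edges of the pathway 6 could be tested, and 1 was higher in each population and 1 lower in mature cells. These are 16.7%, 16.7% and 33.3% of the 6, beside 6.13%, 20.7% and 16.3% of all genes, and numbers this small are given as values only. The lower one was Idnk, gluconate kinase, at -0.51 (edgeR adjusted p = 0.0028). The higher one was the row Pgm2, with 3.64, 3.48 and 3.08 in proBpreB, immature and mature cells. The symbols Pgm1 and Pgm2 have been exchanged between annotations of the mouse genome, so which phosphoglucomutase gene this row counts cannot be told from the symbol. The row Pgm1 changed by 0.22, 0.53 and 0.38 (edgeR adjusted p = 0.42, 0.0065 and 0.064). Tigar, the phosphatase that diverts sugar from glycolysis into the pathway, had values of -0.63, -0.09 and -0.29 and Dera, deoxyribose phosphate aldolase, -0.37, -0.00 and 0.08, none of which passed. G6pd2, a retrogene copy of G6pdx, held 11 counts over all 24 libraries, Tktl1 73 and Tktl2 0.

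Ribose phosphate leaves the pathway through the PRPP synthetases and nucleotide synthesis. In immature cells Prps1 and Prps2, which make PRPP, were lower by estimates of -0.51 and -0.47 (edgeR adjusted p = 0.0037 and 0.0039), and in mature cells Prpsap2, a synthetase-associated protein, by -0.36 (0.022), among 4 tested genes of 5. These calls are 50% of the 4 in immature and 25% in mature cells, beside 20.7% and 16.3% of all genes. Numbers this small are given as values only. Of 19 purine and pyrimidine genes, 9 were lower and 2 higher in immature flox/flox cells, 57.9% beside 20.7% of all genes, with a median of -0.23. Among them Adsl, Ctps and Gart changed by -0.65, -0.95 and -0.80, while Impdh1, an IMP dehydrogenase, changed by 1.08. In proBpreB cells 1 of the 19 was higher and in mature cells 2 were, Hprt (0.91) and Impdh1 (0.96), with 0 lower in either. These are 5.26% and 10.5% of the 19, beside 6.13% and 16.3% of all genes, so neither count is a result about these genes. Proliferation genes moved along with the immature values: 25 of 25 were lower in flox/flox, with sums of 1148 to 1570 CPM in flox/flox, against 3525 to 4467 CPM in flox/WT immature libraries. Their part in the nucleotide genes was not tested.

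Of 14 genes listed around other sources of NADPH, 12 were tested. Of these, 4 were higher in proBpreB, 2 higher and 2 lower in immature, and 2 higher in mature cells, with medians of 0.33, 0.07 and 0.05. The calls are 33.3%, 33.3% and 16.7% of the list, beside 6.13%, 20.7% and 16.3% of all genes. Mthfd1l, a mitochondrial formate-tetrahydrofolate ligase, changed by 1.47, 1.16 and 1.91, and Nadk2, the mitochondrial NAD kinase, by 0.63, 0.77 and 0.68. Neither enzyme reduces NADP itself, so the calls of this list are not a count of NADPH-making enzymes. Me2, a malic enzyme that works mainly with NAD, changed by 0.80 in proBpreB cells. The fourth call there, Me3, averaged 0.535 CPM over all libraries. In immature cells Mthfd2 changed by -1.46 and Mthfd1 by -0.93.

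Users of NADPH in redox defence showed 1 higher and 2 lower of 11 in proBpreB, 2 lower in immature and 1 lower in mature cells, with medians of 0.09, 0.05 and -0.09. The shares called, 27.3%, 18.2% and 9.09%, stand beside 6.13%, 20.7% and 16.3% of all genes in proBpreB, immature and mature cells. Blvrb, biliverdin reductase B, changed by -1.36 in proBpreB and -0.44 in mature cells, Txnrd3 by 1.37 and Cyba, a subunit of the phagocyte NADPH oxidase, by -0.67 in proBpreB cells. In immature cells Cybb, another oxidase subunit, changed by -0.66 and Txnrd1 by -0.56. The list of Nrf2 targets outside the pathway had 13 tested genes of 14, with 1 higher in proBpreB (Abcc1, 0.96), 1 higher and 1 lower in immature (Gclc, 0.62, and Txnrd1) and 2 higher and 1 lower in mature cells (Slc7a11, 2.05, Abcc1, 0.70, and Fth1, -0.48). Its medians were 0.09, 0.16 and 0.37, and its shares called, 7.69%, 15.4% and 23.1%, are likewise read beside those of all genes. The tricarboxylic acid cycle had 0 of 19 called in proBpreB, 5 lower in immature and 3 lower in mature cells, with Idh3a at -0.50 in immature cells and Fh1, fumarate hydratase, at -0.46 in immature and -0.51 in mature cells, and medians of -0.10, -0.17 and -0.20. The 26.3% called in immature and 15.8% in mature cells stand beside 20.7% and 16.3% of all genes, so that neither count is a result about the cycle.

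Between populations, 23 of 48 member tests passed. From proBpreB to immature cells 55.9% of all genes tested were called in flox/flox and 49.4% in flox/WT mice, from immature to mature cells 26.5% in flox/flox and 32.7% in flox/WT mice, and from proBpreB to mature cells 59.1% in flox/flox and 58.8% in flox/WT mice. Libraries of 1 mouse are paired by animal here. The values given ignore the pairing, and the value with the mouse as a block is given where it changes a call.

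The oxidative enzymes did not move together. G6pdx and Pgd rose from proBpreB to immature cells while Pgls fell, in 4 of 4 mice of each genotype. G6pdx was higher in immature cells by 0.87 in flox/flox (SE 0.16, edgeR adjusted p = 2.9e-05) and by 1.04 in flox/WT mice (SE 0.16, adjusted p = 2.7e-06). From immature to mature cells it changed by 0.31 and 0.05, neither of which passed (adjusted p = 0.15 and 0.83). From proBpreB to mature cells G6pdx rose by 1.18 in flox/flox and 1.10 in flox/WT mice (edgeR adjusted p = 2.4e-07 and 7.7e-07). Pgd rose by 0.54 in flox/flox and 0.51 in flox/WT mice from proBpreB to immature cells (edgeR adjusted p = 3.0e-04 and 6.9e-04) and by 0.32 and 0.55 from proBpreB to mature cells. The flox/flox change of 0.32 (adjusted p = 0.022) was lost without mature flox/flox replicate 1 (0.11) or proBpreB flox/flox replicate 4 (0.059).

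Pgls had the largest stage change of the 8, from proBpreB to mature cells. It was -1.79 in flox/flox and -2.01 in flox/WT mice (edgeR adjusted p = 1.4e-11 and 1.2e-12). From proBpreB to immature cells it fell, with log2 changes of -1.15 in flox/flox and -1.60 in flox/WT mice (SE 0.14 each, edgeR adjusted p = 8.1e-08 and 2.6e-10). From immature to mature cells it fell further, with changes of -0.65 and -0.41 (adjusted p = 9.1e-04 and 0.025), and it was lower in 4 of 4 mice of each genotype at each step. The flox/WT fall of the later step was lost without immature flox/WT replicate 1 (adjusted p = 0.13), mature replicate 1 (0.060) or mature replicate 4 (0.067). Fam129c changed by -0.37 in flox/flox (edgeR adjusted p = 0.061) and by -1.08 in flox/WT mice from proBpreB to immature cells. Its change at the later step, from immature to mature cells, was -2.79 in both genotypes. The log2 CPM of Pgls and Fam129c correlated at r = 0.81 over the 24 libraries. Proliferation genes summed to a mean of 7643 CPM in proBpreB and 1375 CPM in immature flox/flox libraries, against 7322 and 4010 CPM in flox/WT libraries. Neither the part of shared reads nor that of proliferation in the Pgls values was tested. H6pd did not pass in any of its 6 stage tests, and its lowest adjusted p was 0.055, for -0.42 from proBpreB to mature cells in flox/WT mice. That change passed with the mouse as a block (adjusted p = 0.046) and with DESeq2 (0.036).

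**Figure D3:**
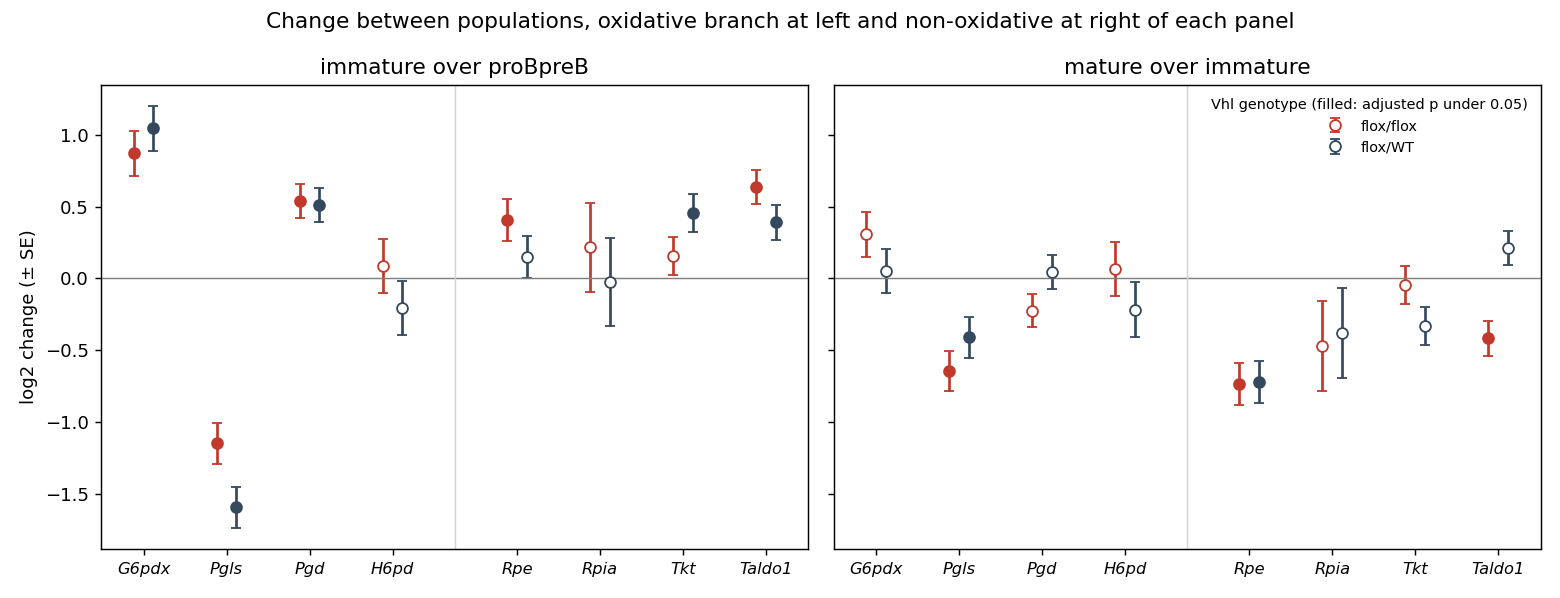
Log2 change between populations (y axis, bars SE) for each enzyme (x axis), immature over proBpreB in the left panel and mature over immature in the right panel, in flox/flox and flox/WT mice, with filled points for an adjusted p under 0.05. Pgls lies lowest in the left panel at -1.15 and -1.60, and Taldo1 has opposite signs in the right panel, -0.42 in flox/flox and 0.21 in flox/WT.

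In the non-oxidative branch Rpe and Taldo1 carried most of the stage calls. Rpe fell from immature to mature cells with changes of -0.74 in flox/flox and -0.72 in flox/WT mice (SE 0.15 each, edgeR adjusted p = 2.8e-04 and 2.9e-04), in 4 of 4 mice of each genotype. Between proBpreB and immature cells it rose by 0.41 in flox/flox mice (adjusted p = 0.019), a call lost without proBpreB flox/flox replicate 2 (0.067), and changed by 0.15 in flox/WT mice (0.41). From proBpreB to mature cells the change was -0.33 in flox/flox (adjusted p = 0.051, 0.017 with the mouse as a block and 0.046 with DESeq2) and -0.57 in flox/WT mice (0.0013). Over all annotated transcripts Kansl1l overlaps 17.9% of the Rpe exons on the other strand, and 16.3% in the basic set, and whether strand was used in counting is not given. Ikbkg likewise overlaps 13.6% of the G6pdx exons over all transcripts and 0% in the basic set.

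Taldo1 rose from proBpreB to immature cells by 0.64 in flox/flox and 0.39 in flox/WT mice (SE 0.12 each, edgeR adjusted p = 5.8e-05 and 0.0080). It then fell by 0.42 in flox/flox mice (adjusted p = 0.0094) and changed by 0.21 in flox/WT mice (0.18). From proBpreB to mature cells the net change was 0.22 in flox/flox (adjusted p = 0.12, and 0.0045 without mature flox/flox replicate 3) and 0.60 in flox/WT mice (9.5e-05). Tkt rose from proBpreB to immature cells by 0.45 in flox/WT mice (SE 0.13, adjusted p = 0.0057) and changed by 0.16 in flox/flox mice (0.32). Its flox/WT change from immature to mature cells, -0.33, did not pass (adjusted p = 0.055). It did with the mouse as a block (0.016) and with DESeq2 (0.048). From proBpreB to mature cells Tkt changed by 0.11 in flox/flox and 0.12 in flox/WT mice (edgeR adjusted p = 0.50 and 0.45). Rpia passed in 0 of 6 stage tests with edgeR, at values from -0.47 to 0.22. Without mature flox/flox replicate 3 its change from immature to mature cells in flox/flox mice was -0.92 and passed (edgeR adjusted p = 0.031).

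Over the 24 libraries the pairs of members ranged from r = -0.90 between G6pdx and Pgls to r = 0.74 between Pgd and Tkt, Pearson correlations of log2 CPM given as a description, since the libraries share 3 populations and 8 mice. Among 7619 other genes of at least moderate level, those most like G6pdx were Ltf (r = 0.97), Cd177 (0.96) and Ngp (0.96), all of which encode neutrophil proteins. Those most like Pgls were Idh2, H2afv and Elof1 (0.97, 0.97 and 0.96), those most like Pgd were Vps8, Ugdh and Tmem64 (0.93, 0.92 and 0.92), and those most like Taldo1 were Map2k2, Rbm42 and Cog8 (0.91, 0.90 and 0.89). For Rpe they were Sh3bgrl, Armt1 and Bzw1 (0.90, 0.88 and 0.88) and for Tkt G3bp1, Grwd1 and Nifk (0.86, 0.84 and 0.84). H6pd and Rpia reached at most 0.74, with Gstm1, and 0.70, with Kctd12.

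The likeness of G6pdx to neutrophil genes stands beside its stage change. From proBpreB to immature cells 15 of 17 myeloid markers were called higher in flox/flox and 13 of 17 in flox/WT mice. Of all genes, 55.9% in flox/flox and 49.4% in flox/WT mice were called in either direction at this step. The marker medians were 1.46 and 0.76 on the log2 scale, against 0.87 and 1.04 for G6pdx. In mature flox/WT libraries replicate 1 had both the highest G6pdx, 179 CPM, and the highest marker sum, and in mature flox/flox libraries replicates 1 to 4 had G6pdx at 194, 166, 154 and 124 CPM and marker sums of 21612, 20590, 19541 and 13406 CPM, the same order. In immature cells the marker sums did not overlap between genotypes while G6pdx did, at 95.4 to 144 CPM in flox/flox, against 122 to 135 CPM in flox/WT libraries. Among the flox/WT proBpreB libraries the order was different, since replicate 2 had the lowest marker sum, 4250 CPM, and the highest G6pdx, 67.9 CPM. The part of myeloid transcripts in the rise of G6pdx was not tested.

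**Figure D4:**
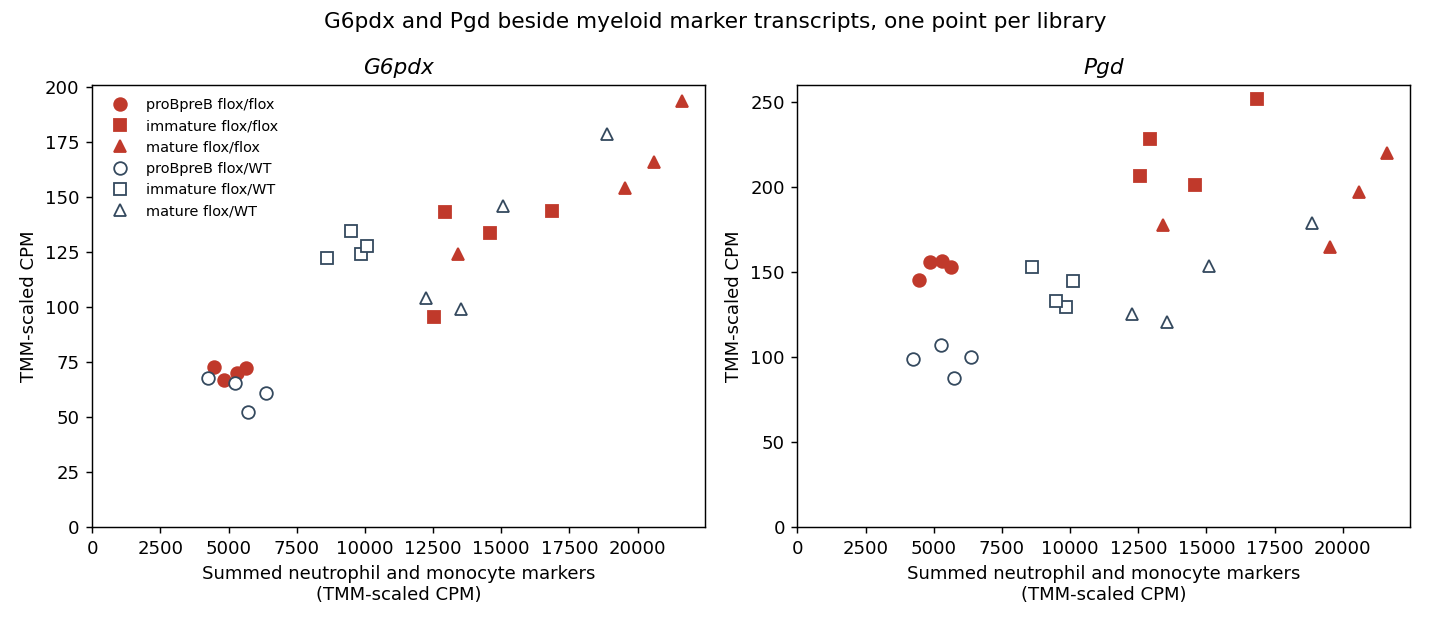
G6pdx and Pgd (y axis, TMM-scaled CPM from 0) beside the summed neutrophil and monocyte markers (x axis, TMM-scaled CPM), 1 point per library, by population and genotype. Both G6pdx and the sums are lowest in the proBpreB libraries, within immature cells the sums separate the genotypes and G6pdx does not, and Pgd of flox/flox proBpreB libraries lies above that of flox/WT proBpreB libraries at marker sums that overlap.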

How the data were processed

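RNA of sorted cells was extracted with the RNeasy Plus Micro kit and made into libraries (SMARTer Universal Low Input RNA Kit), per the labels' protocols. The submitters' processing notes name the build mm10 with DESeq2, featureCounts, HISAT2, Trim Galore, FastQC and CASAVA. Tool versions, settings, strand use and annotation are not stated there or in the labels. The authors deposited raw counts per gene symbol, and these were the values tested. A second table of normalised signal was not used.

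Counts were fitted by the robust quasi-likelihood test of edgeR 4.0.16 (R 4.3.3), after filterByExpr and TMM scaling, with 6 group means over all 24 libraries and 18 residual degrees of freedom. Benjamini-Hochberg adjustment ran over 12850 genes within each of 12 comparisons, 3 between genotypes, 6 between populations and 3 of the difference between genotype effects, at a threshold of 0.05. Log2 changes are edgeR estimates with SE, and log2 CPM used a prior count of 2. Totals of 7850186 to 11863949 counts per library set the precision, and a limit of 3 counts covers counting error only. The fit was also run on counts simulated with few changed genes and independent libraries, unlike these data, and no result here rests on that run. Alternatives were DESeq2 1.42.0, limma-voom (limma 3.58.1) with the mouse as a random block, RLE size factors, a fit of the compared groups alone, no filter, a minimum of 10 CPM in 4 libraries, a replicate block, and each library left out in turn.

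All 8 enzymes were tested in each comparison and are named where their values are described. Of each other list up to 4 called genes per genotype comparison are named, smallest adjusted p first. Like genes were the 3 with the highest correlation among genes whose log2 CPM averaged 4 or more. The members and lists were chosen with earlier results of these data known, and 1 gene of the list of NADPH users is not reported here and was left out of its counts and medians. Libraries of a mouse carry the same host label and so are paired by animal. Their deviations from the group means correlated at -0.28 to 0.37 over 5000 genes, and 16 of 24 pairs exceeded 0.1. Replicate numbers do not pair mice across genotypes. No 2 libraries of a group agreed within sampling noise, with a lowest chi-square per degree of freedom of 6.05 over 36 pairs. Exon lengths and overlaps came from GENCODE M21 and promoters from RefSeq, both on GRCm38, and all 8 symbols matched.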

Additional observations from a re-analysis of the deposited data

Results flagged for a closer look

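The genotype effect on Taldo1 differed between mature and immature cells by -0.63 on the log2 scale in a test of the difference itself (SE 0.17, edgeR adjusted p = 0.018). In mature cells Taldo1 averaged 339 ± 73.1 CPM in flox/flox, against 524 ± 34.3 CPM in flox/WT mice, and in immature cells 453 ± 48.8 CPM in flox/flox, against 452 ± 46.7 CPM in flox/WT libraries (errors are SD, n = 4). Markers of other cells and stages moved with genotype in both populations. In mature cells the median log2 change was 0.83 for pro-B and pre-B markers (5 of 15 called higher), 0.73 for proliferation genes (15 of 25 higher), 0.97 for erythroid markers (3 of 12 higher) and -0.33 for mature B markers (6 of 14 lower). Stroma and endothelium markers there had a median of 0.09, with 2 of 8 tested called (25%), in opposite directions. Their sums were 190 to 233 CPM in flox/flox, against 245 to 315 CPM in flox/WT libraries. In immature cells the median was 0.62 for pro-B and pre-B markers, -1.66 for proliferation genes, 1.22 for erythroid markers and -0.64 for mature B markers. The shares called, in that order, were 33.3%, 60%, 25% and 42.9% in mature and 46.7%, 100%, 58.3% and 64.3% in immature cells. Of all genes 16.3% were called in mature and 20.7% in immature cells. The part of these markers in the difference was not tested. Among 48 groups of 4 libraries, 8 enzymes in 6 groups, none held a library whose gap to the others exceeded Dixon's 95% critical value.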

How the results depend on the processing

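The number of enzymes called between genotypes in proBpreB cells, 1, was 2 with DESeq2 and with limma-voom, 3 with the replicate number as a block, and 1 to 3 without each library in turn. In mature cells the number, 2, was 1 with only the groups compared and 1 to 4 without each library. From proBpreB to mature cells in flox/flox mice, 3 became 2 to 5 without each library, and from immature to mature cells in flox/WT mice 2 became 1 to 2. The cause was not tested. Over all genes, the mature genotype comparison called 2096 genes and 1296 with only the groups compared, the mature minus proBpreB difference 393 and 606 with DESeq2, and the proBpreB genotype comparison 788 and 493 without flox/WT replicate 4.

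The replicate number does not pair mice across genotypes, and with it as a block the Pgls and Tkt changes in proBpreB cells passed (-0.43 and 0.36, adjusted p = 0.026 and 0.038), as did Tkt in mature cells (0.34, 0.028). With the mouse as a fixed block in edgeR, which cannot be fitted between genotypes within a population, the calls of Rpe, Tkt and H6pd changed as given with their values, and no other member call did. The same 3 changes also passed with DESeq2 and with the minimum of 10 CPM in 4 libraries, so they lie near the threshold. With the mouse as a random block in limma-voom those 3 and the Pgls change in proBpreB cells between genotypes passed (adjusted p = 0.027, 0.030, 0.026 and 0.040). The levels per kilobase over all annotated transcripts were added after seeing the data.

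Changes of sign were found among values that had not passed. Between genotypes in immature cells, Taldo1 was -0.015 without the expression filter, -5.7e-04 with the replicate number as a block and -0.061 to 0.073 without each library, G6pdx -0.036 to 0.14, Pgls -0.081 to 0.14, Rpia -0.045 to 0.25 and Rpe -0.012 to 0.19. Without each library, Rpia was -0.30 to 0.068 in proBpreB cells, and in mature cells Rpia and Rpe were -0.39 to 0.25 and -0.052 to 0.18. With limma-voom Rpia was -0.038 in mature cells and 0.052 from proBpreB to immature flox/WT cells, a change of 0.017 with the mouse as a block and -0.23 to 0.14 without each library. From immature to mature cells without each library, flox/flox Tkt was -0.14 to 0.050 and H6pd -0.077 to 0.17, and flox/WT G6pdx -0.13 to 0.17 and Pgd -0.076 to 0.12. The Pgd effect in immature minus proBpreB cells was -0.035 to 0.082. Rpia, at the lowest counts, had the widest intervals.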
